A study of Bos taurus with 6 samples.

Results

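Genes of glucose uptake, glycolysis, the pyruvate and lactate steps and the pentose phosphate pathway were followed in bovine embryos produced by in vitro fertilization. The list of 43 genes was chosen by symbol, with earlier results of these data known. The platform's annotation placed 66 of the 24036 probe sets in the table on 39 of these genes, and HK2, PDK1, BPGM and PGM2 had no annotated probe set. Of the 66, 53 were tested, 10 had a single value on all arrays and 3 were control probe sets of GAPDH. A probe set is a group of short oligonucleotides summarised as 1 value, and where a gene had several tested probe sets the one with the highest mean over the 6 arrays stood for the gene. In all, 18937 probe sets and 8189 genes were tested.

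The series held 3 pools of late degenerative embryos and 3 pools of blastocysts, each with the letter A, B or C and 20 embryos graded on day 8, and each hybridized to a GeneChip Bovine Genome Array of its own. Both groups came from oocytes of abattoir ovaries and from morulae that had compacted, and both were cultured in synthetic oviductal fluid with added sodium pyruvate. Degenerative embryos had not completed the transition to a blastocyst, whereas blastocysts showed an inner cell mass set off from a fluid-filled cavity. Each pool mixed embryos of several cows and bulls, and the RNA was amplified from poly(A) tails before hybridization. Expression is given as GCRMA values on the log2 scale, on which 1 unit is a 2-fold difference and the floor is 2.12. All differences are degenerative embryos minus blastocysts. P-values set the difference between the groups against the spread between these pools, and limma takes that spread as equal in both groups.

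Glucose enters a cell through transporters of the SLC2A family and is phosphorylated by a hexokinase. Glycolysis then splits it to pyruvate, which lactate dehydrogenase converts to lactate or the pyruvate dehydrogenase complex passes to the mitochondria, and the pentose phosphate pathway draws off glucose phosphate to make ribose and NADPH. Mammalian embryos are known to live mainly on pyruvate and lactate during cleavage and to take up more glucose around compaction and blastocyst formation. Several steps have isozymes encoded by separate genes, named after the adult tissue in which each prevails.

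Degenerative pool A stood apart from the other pools of its group. Across the probe sets tested, it correlated with degenerative pools B and C at r = 0.938 and 0.936, while those 2 correlated at 0.987. Blastocyst pool A also stood apart, though less far. It correlated with blastocyst pools B and C at 0.977 and 0.972, while those 2 correlated at 0.994. The summed signal of trophectoderm markers was lower in every degenerative pool (15.60 to 15.75 on the log2 scale) than in every blastocyst pool (15.83 to 16.12), with 6 of the 7 markers tested at a mean of at least 5 in both groups and DLX3 near the floor. Of these markers only PAG2 separated the groups clearly (difference -2.41, no overlap). IFNT2 (-1.01) overlapped, with degenerative pool A at 10.45 and pools B and C within the blastocyst range. TEAD4, KRT8, KRT18 and ELF3 overlapped too, with differences of 0.022, -0.041, -0.062 and -0.19. CDX2, GATA2, GATA3 and TFAP2C were listed but not among the genes tested. Inner cell mass markers summed higher in every degenerative pool (14.18 to 14.98) than in every blastocyst pool (13.93 to 14.06). This sum held 3 markers, of which KLF4 was the brightest in every pool. KLF4 (difference 0.51) and POU5F1 (0.48) did not overlap. SOX2 (1.03) overlapped, with degenerative pool C at 8.023 and blastocyst pool B at 8.027. The study saw no distinct inner cell mass in degenerative embryos, so this sum is not a measure of its size. NANOG, LIN28A, PRDM14, TDGF1 and DPPA3 were listed but not among the genes tested. Hypoblast markers overlapped (15.05 to 15.67 against 15.001 to 15.22, over 6 markers). Oocyte markers summed higher in every degenerative pool (7.89 to 8.65 against 7.04 to 7.79), over 5 markers. Of these, only OOEP reached a mean of 5. The summed markers of cumulus and granulosa cells overlapped (10.62 to 11.98 against 10.33 to 10.91, over 9 markers, with LHCGR and AREG at the floor). HAS2 was the brightest of them in every pool. INHBA did not overlap, at 8.70, 9.03 and 7.84 in degenerative pools A, B and C, against 3.71, 6.64 and 7.68 in blastocysts. HAS2 (0.45), PTX3 (3.02) and FST (0.19) overlapped, and FSHR (-0.52), CYP19A1 (-2.08) and TNFAIP6 (-0.82) had negative differences. The summed sperm markers overlapped (5.25 to 6.09 against 5.20 to 7.54, over 3 markers). The part of these levels in the results below was not tested. In pooled embryos, fewer cells of a type and less RNA per cell cannot be told apart.

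No member gene passed limma at an adjusted p up to 0.15, which is the rate of false discoveries that the study allowed, beside 0.0366% of all genes and 0.0211% of all probe sets. None passed without degenerative pool A (beside 0.22% of all genes) or with the replicate letter as a block (beside 0%). SAM, the study's own test, also called none at 15%, where it called 0.391% of all genes. At 25%, SAM called ENO3 and PFKFB3 as lower, 2 of 39 members beside 5.23% of all genes, of which 4.73% lower. At an unadjusted limma p under 0.05, 5 of 39 were found beside 10.3% of all genes. ALDOC, GAPDH and ENO2 were higher (beside 4.68% of all genes) and ENO3 and PFKFB3 lower (5.65%). With the replicate letter as a block the unadjusted count was 4 (beside 10.7%), with SLC16A1 in and GAPDH and ENO2 out. All of these shares lay near those of all genes.

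A difference of at least 1 unit was found for 5 members upward, namely GPI, PFKP, ALDOC, ENO2 and PDK4 (beside 6.29% of all genes), and for PGAM2 and PFKFB3 downward (beside 4.68%). All degenerative pools lay on 1 side of all blastocyst pools for 8 of 39 members (beside 18.1% of all genes). GPI, ALDOC, GAPDH and PDK2 were higher in this way (beside 8.99%) and ENO3, PKLR, DLD and PFKFB3 lower (beside 9.16%). With 2 pools in place of 3, this count was 15 without degenerative pool A (38.5%, beside 33.1%) and 23 without degenerative pool C (59%, beside 32.7%). It was 11 without degenerative pool B (beside 24.6%), 11 without blastocyst pool A (beside 26.2%), 10 without blastocyst pool B (beside 23.5%) and 11 without blastocyst pool C (beside 25.6%). Comparing pools of the same letter, the degenerative pool was higher in all 3 letters for 7 of 39 members (beside 19.2%) and lower in all 3 for 6 (beside 19.9%). The 95% interval of the difference lay within 1 unit either way for 11 of 39 members (beside 43.1%). For the other 28, a 2-fold difference was not excluded at this number of pools.

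The difference was above 0 for 24 of 39 members, beside 54.5% of all genes. Its median was 0.14 over the members and 0.02 over all genes tested. Both figures moved with single pools. Without degenerative pool A the median was 0.01, and 20 of 39 members were above 0 (beside 53.4%). Without degenerative pool C the median was 0.44. The count at an unadjusted p under 0.05 was again 5 without degenerative pool A (beside 12.3%), with GPI and SLC16A3 in place of GAPDH and ENO2. It was 11 without degenerative pool C (beside 14.2%), 3 without degenerative pool B (beside 8.06%), 2 without blastocyst pool A (beside 6.48%), 2 without blastocyst pool B (beside 6.29%) and 3 without blastocyst pool C (beside 8.19%).

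**Figure D1:**
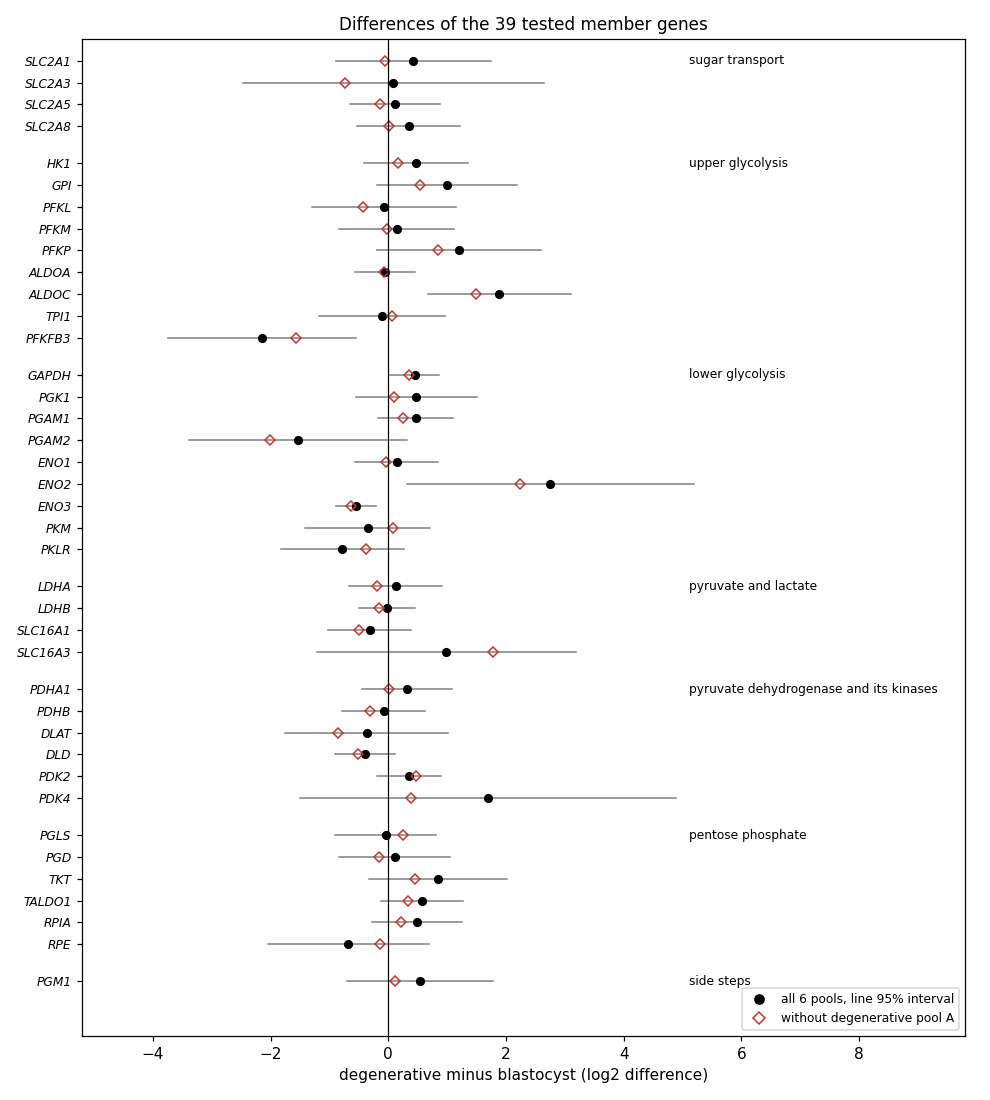
Log2 difference, degenerative minus blastocyst (horizontal axis), of the 39 tested member genes, grouped by role down the page. Black points with 95% intervals from limma use all 6 pools and open red diamonds leave out degenerative pool A. Intervals of ALDOC, GAPDH and ENO2 lie above 0 and those of ENO3 and PFKFB3 below it, and most of the other intervals reach past 1 unit.

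The transporters that bring sugar into the cell came first in the pathway, and all 4 had small differences. SLC2A1, the widely expressed glucose transporter, was at 12.55, 11.41 and 10.81 in degenerative pools A, B and C, against 11.52, 11.04 and 10.93 in blastocyst pools A, B and C. The A pool was the highest of its group on both sides and the groups overlapped. The difference was 0.43 with all pools and -0.06 without degenerative pool A. SLC2A3, a glucose transporter of high affinity, was at 5.36, 2.90 and 2.87 in degenerative embryos and at 4.94, 3.001 and 2.94 in blastocysts. Only the A pools were clear of the low end of the scale. SLC2A5, a transporter of fructose, was at 14.42, 13.77 and 13.58 in degenerative embryos and at 14.18, 13.67 and 13.59 in blastocysts, so that pools of the same letter lay within 0.24 of each other. Its other 2 probe sets had differences of 0.19 and -0.05. SLC2A8, an intracellular sugar transporter, had 9.75, 8.93 and 8.53 in degenerative embryos and 8.66, 8.74 and 8.76 in blastocysts, a spread of 0.62 against 0.05 (SD, n = 3 each). Without degenerative pool A its difference was 0.01.

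In upper glycolysis, 5 of the 9 tested genes were higher and 4 lower in degenerative embryos, with a median difference of 0.14. HK1, the hexokinase of most tissues, was at 11.56, 10.97 and 10.35 in degenerative embryos, against 10.28, 10.59 and 10.60 in blastocysts. Degenerative pools A and B lay above and pool C within the range of the blastocysts. GPI, which turns glucose phosphate into fructose phosphate, was at 14.27, 13.12 and 12.62 in degenerative embryos, against 12.42, 12.26 and 12.31 in blastocysts. All 3 degenerative pools were above all 3 blastocyst pools, and the blastocyst pools were close to each other (SD 0.08, n = 3). The difference was 1.005, or 2.01-fold (standard error 0.45, adjusted p = 0.624 from limma) and was 0.54 without degenerative pool A.

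Phosphofructokinase, which commits sugar to glycolysis, is encoded by PFKL, PFKM and PFKP, named after liver, muscle and platelets. PFKP was at 5.06, 4.76 and 3.23 in degenerative embryos, against 3.22, 2.96 and 3.26 in blastocysts. Degenerative pools A and B stood 1.84 and 1.80 above the blastocyst pools of their letters and pool C did not. Its signals were dim, and the difference of 1.20 (standard error 0.53) had an adjusted p of 0.617 from limma. PFKL was at 9.51, 9.06 and 7.82 in degenerative embryos and at 8.87, 8.90 and 8.82 in blastocysts, with a difference of -0.07. Degenerative pools A and B were above all blastocyst pools and pool C was below them. PFKM was at 7.29, 7.37 and 6.25 in degenerative embryos and at 6.93, 7.06 and 6.495 in blastocysts, and a second, dimmer probe set of it had a difference of -0.41 in place of 0.14.

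PFKFB3 encodes the enzyme that makes the activator of phosphofructokinase, fructose bisphosphate with a phosphate on its second carbon. It was at 6.99, 8.18 and 9.23 in degenerative embryos, against 10.15, 10.52 and 10.17 in blastocysts. Every degenerative pool was below every blastocyst pool, and pool A was the lowest. The difference was -2.14 (standard error 0.61, 95% interval -3.74 to -0.55), 4.42-fold lower in degenerative embryos. The adjusted p was 0.532 from limma and lay between 0.272 and 0.863 over 13 settings. Without degenerative pool A the difference was -1.57, or 2.97-fold. The other annotated probe sets of PFKFB3 were constant over the arrays, at 2.16 and 2.12, and were not tested.

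Aldolase, which splits the sugar, gave unlike values on its 2 genes. ALDOC, the aldolase named for brain, was at 9.46, 8.70 and 7.85 in degenerative embryos, against 6.64, 6.56 and 7.15 in blastocysts. The groups did not overlap. The difference was 1.89 (standard error 0.46, 95% interval 0.67 to 3.11), 3.70-fold higher in degenerative embryos, with an adjusted p of 0.487 from limma (0.251 to 0.848 over 13 settings), and was 1.49 without degenerative pool A. ALDOA, the aldolase of muscle and most other tissues, was at 11.91, 12.19 and 11.54 in degenerative embryos and at 12.09, 11.91 and 11.81 in blastocysts. Its difference was -0.05, with a 95% interval of -0.56 to 0.46 that leaves out a 2-fold difference. TPI1, the triosephosphate isomerase, was at 10.55, 11.77 and 10.39 in degenerative embryos and at 11.004, 10.90 and 11.12 in blastocysts.

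**Figure D2:**
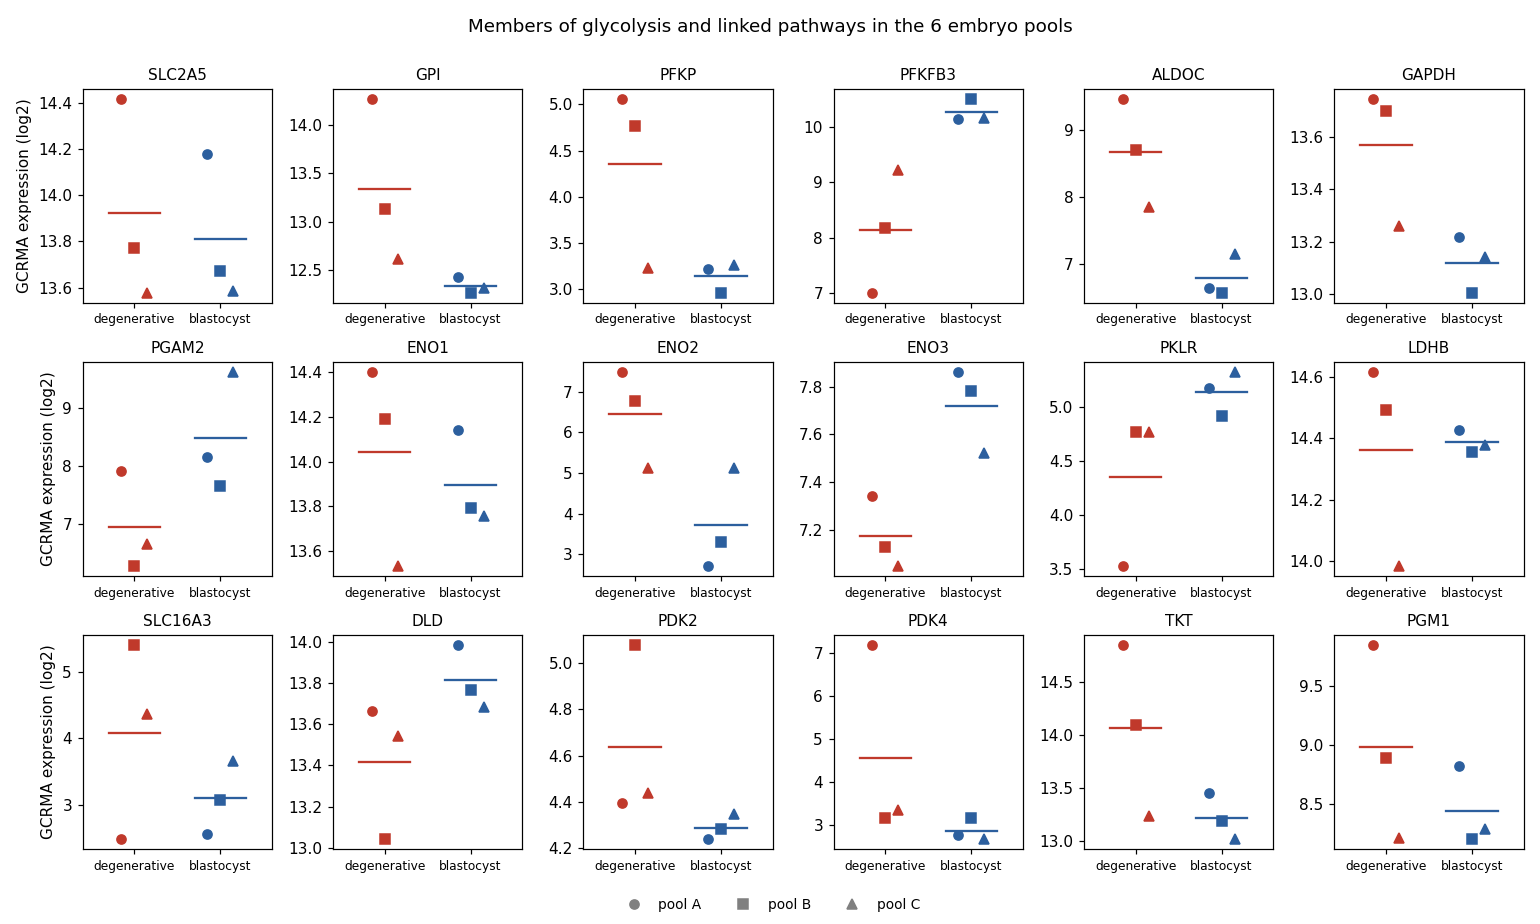
Log2 GCRMA values (vertical axes, each with its own range that does not start at 0) of 18 members in each pool. Red symbols are degenerative embryos and blue symbols blastocysts, with a marker for each pool letter and a line at the mean of 3 pools. GPI, ALDOC, GAPDH and PDK2 lie higher in all degenerative pools, PFKFB3, ENO3, PKLR and DLD lower in all, and PDK4 is high in degenerative pool A only.

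Lower glycolysis held 9 genes, 5 higher and 4 lower, with a median difference of 0.15. GAPDH, the dehydrogenase of glyceraldehyde phosphate, was also the gene to which the study's real-time RT-PCR was normalized. The study described its array signal as largely unvarying across samples and assessed its stability with RPLP0 and ACTB as further reference genes. Its tested probe set was at 13.75, 13.70 and 13.26 in degenerative embryos, against 13.22, 13.00 and 13.14 in blastocysts. All degenerative pools were above all blastocyst pools. The difference was 0.45 (standard error 0.16, 95% interval 0.04 to 0.86), 1.36-fold, with an adjusted p of 0.566 from limma. It lay between 0.36 and 0.60 when a single pool was left out.

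The array also carried 3 control probe sets of GAPDH, which were left out of the tests as in the methods. That of the 3′ part was at 14.41, 14.68 and 14.32 in degenerative embryos and at 14.11, 14.30 and 14.30 in blastocysts. That of the middle part was at 13.18, 13.09 and 12.70 in degenerative embryos and at 12.67, 12.40 and 12.55 in blastocysts. On both, every degenerative pool lay above every blastocyst pool, by as little as 0.02 and 0.03. On the 5′ part the groups overlapped, at 11.91, 12.16 and 11.85 in degenerative embryos and at 12.28, 11.42 and 11.73 in blastocysts. The 3′ signal exceeded the 5′ signal by 2.48 to 2.52 in degenerative pools and by 1.83 to 2.89 in blastocyst pools, so this measure overlapped for GAPDH. For the control of eIF-4E the same measure was 9.13 to 9.87 in degenerative pools and 6.60 to 8.59 in blastocyst pools. For that of actin it went the other way, at 2.29 to 4.94 in degenerative pools and 5.37 to 6.65 in blastocyst pools. For the controls of ef1a (0.52 to 0.83 in degenerative pools and -1.65 to 0.87 in blastocyst pools) and Cyph (2.52 to 3.22 in degenerative pools and 2.13 to 2.72 in blastocyst pools) the groups overlapped. In RNA amplified from poly(A) tails, the 3′ excess does not measure RNA integrity alone, which the study checked on a Bioanalyzer. The part of the 3′ excess in the differences was not tested.

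**Figure D3:**
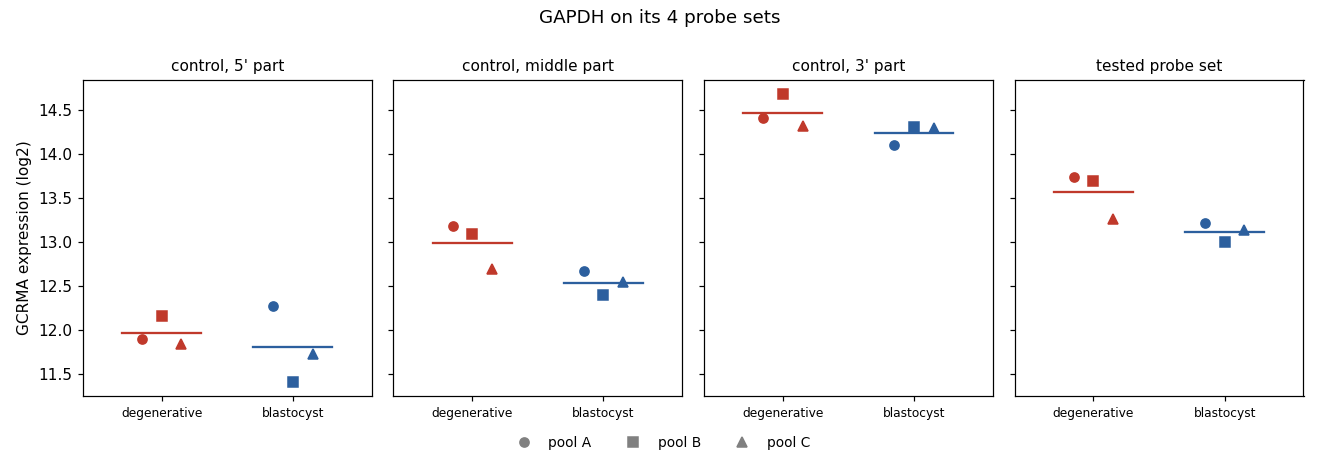
Level of GAPDH as log2 GCRMA values (vertical axis, not starting at 0) on 3 control probe sets and on the tested probe set, with red symbols for degenerative and blue symbols for blastocyst pools and a line at each mean. The degenerative pools lie higher on the middle, 3′ and tested probe sets and overlap with the blastocysts on the 5′ one.

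PGK1, the phosphoglycerate kinase that yields the first ATP of the pathway, was at 14.04, 13.19 and 12.64 in degenerative embryos and at 13.05, 12.62 and 12.77 in blastocysts. PGAM1, the widespread phosphoglycerate mutase, was at 13.12, 12.67 and 12.24 in degenerative embryos and at 12.30, 12.24 and 12.09 in blastocysts. In both genes pool C of the degenerative embryos lay within the range of the blastocysts. PGAM2, the mutase of muscle, was at 7.91, 6.28 and 6.66 in degenerative embryos, against 8.17, 7.67 and 9.62 in blastocysts. Each degenerative pool was below the blastocyst pool of its letter, but pool A was above blastocyst pool B. The difference was -1.53 (standard error 0.71, adjusted p = 0.624 from limma), and -2.01 without degenerative pool A.

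The 3 enolases, which share a step, gave 3 different values. ENO2, named for neurons, was at 7.49, 6.78 and 5.13 in degenerative embryos, against 2.71, 3.30 and 5.13 in blastocysts. Degenerative pools A and B were far above the blastocyst pools of their letters, and the C pools were level. The difference was 2.75 (standard error 0.93, 95% interval 0.31 to 5.20), or 6.75-fold, with an adjusted p of 0.556 from limma. Without degenerative pool A it was 2.24. The fold is measured against dim signals, as blastocyst pools A and B lay near the low end of the scale. ENO3, named for muscle, was at 7.34, 7.13 and 7.05 in degenerative embryos, against 7.86, 7.78 and 7.52 in blastocysts. No pool overlapped, and the differences within the letters A, B and C were -0.52, -0.65 and -0.47. The group difference was -0.55 (standard error 0.13, 95% interval -0.89 to -0.21), or 1.46-fold lower in degenerative embryos, with an adjusted p of 0.479 from limma (0.336 to 0.848 over 13 settings). ENO1, the enolase of most tissues, was at 14.40, 14.19 and 13.53 in degenerative embryos and at 14.14, 13.79 and 13.76 in blastocysts, with a difference of 0.15 (95% interval -0.56 to 0.85). Whether the 3 differences differ from each other was not tested.

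Pyruvate kinase closes glycolysis and is encoded by PKM, in most tissues, and PKLR, in liver and red blood cells. PKM was at 8.71, 10.11 and 9.89 in degenerative embryos and at 9.81, 9.97 and 9.98 in blastocysts. Pool A alone was low, and without it the difference was 0.08 in place of -0.35. PKLR was at 3.52, 4.77 and 4.77 in degenerative embryos, against 5.17, 4.92 and 5.32 in blastocysts. All degenerative pools were below all blastocyst pools at dim signals, and the difference was -0.78 with all pools and -0.37 without pool A.

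The genes of lactate and its transport had no difference past 1 unit with all pools. LDHA, the lactate dehydrogenase subunit of muscle, was at 13.73, 12.78 and 12.83 in degenerative embryos and at 13.19, 12.84 and 12.94 in blastocysts, a difference of 0.12. Its other probe sets were of opposite sign to each other, with differences of -0.53 and 0.49. On the former, every degenerative pool (10.94, 9.95 and 11.02) lay below every blastocyst pool (11.21, 11.15 and 11.16). LDHB, the subunit of heart, was at 14.62, 14.49 and 13.98 in degenerative embryos and at 14.43, 14.35 and 14.38 in blastocysts, with a 95% interval of -0.50 to 0.46 that leaves out a 2-fold difference.

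SLC16A1, a carrier of lactate and pyruvate, was at 13.90, 13.35 and 13.34 in degenerative embryos and at 14.29, 13.67 and 13.59 in blastocysts. The groups overlapped, but within the letters A, B and C the differences were -0.38, -0.32 and -0.24. SLC16A3, a carrier that exports lactate from glycolytic cells, was at 2.49, 5.40 and 4.37 in degenerative embryos, against 2.57, 3.07 and 3.66 in blastocysts. Its A pools lay near the floor on both sides. The difference of 0.99 was 1.79 without degenerative pool A (adjusted p = 0.737 with all pools and 0.429 without it, from limma), and its second tested probe set lay at the floor.

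The pyruvate dehydrogenase complex turns pyruvate into acetyl-CoA. Of its subunits, DLD, which other dehydrogenase complexes share, was at 13.67, 13.04 and 13.54 in degenerative embryos, against 13.99, 13.77 and 13.69 in blastocysts. The groups did not overlap, by 0.02 at the nearest pools. The difference was -0.40 (standard error 0.20, adjusted p = 0.634 from limma). DLAT, the acetyl-transferring subunit, was at 10.84, 9.34 and 9.39 in degenerative embryos and at 10.80, 10.04 and 9.84 in blastocysts, and all 3 of its tested probe sets had negative differences (-0.37, -0.35 and -0.48). PDHB, a subunit of the first enzyme, was at 13.17, 12.52 and 12.36 in degenerative embryos and at 13.05, 12.58 and 12.64 in blastocysts. Its partner PDHA1 was at 13.90, 12.87 and 13.07 in degenerative embryos and at 12.96, 12.92 and 13.00 in blastocysts, and a dimmer probe set of PDHA1 had the opposite sign, at -0.36 in place of 0.32. Without degenerative pool A the differences of DLAT, DLD and PDHB were -0.86, -0.52 and -0.32, and that of PDHA1 was 0.01.

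The kinases PDK2 and PDK4 switch the complex off. PDK4 was at 7.19, 3.17 and 3.35 in degenerative embryos, against 2.78, 3.17 and 2.68 in blastocysts. Pool A stood 4.40 above the blastocyst pool of its letter and the B pools were equal to 2 decimals. The difference was 1.69 with all pools (standard error 1.22) and 0.38 without degenerative pool A, and a second tested probe set, near the floor, had -0.025. PDK2 was at 4.39, 5.08 and 4.44 in degenerative embryos, against 4.24, 4.28 and 4.35 in blastocysts. Its pools did not overlap, at dim signals and with a difference of 0.35.

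Of 6 tested genes of the pentose phosphate pathway, 4 were higher and 2 lower in degenerative embryos, with a median of 0.30. TKT, the transketolase that exchanges carbon between the pathway and glycolysis, was at 14.85, 14.10 and 13.24 in degenerative embryos, against 13.45, 13.19 and 13.02 in blastocysts. TALDO1, the transaldolase beside it, was at 14.21, 13.70 and 13.27 in degenerative embryos, against 13.29, 13.01 and 13.15 in blastocysts. In both genes each degenerative pool was above the blastocyst pool of its letter, and pool C overlapped with blastocyst pool A. The differences were 0.84 for TKT (standard error 0.45, adjusted p = 0.651 from limma) and 0.57 for TALDO1 (standard error 0.26, adjusted p = 0.624 from limma). Without degenerative pool A they were 0.45 and 0.33.

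The other enzymes of the pathway overlapped between the groups. RPIA, which isomerizes ribose phosphate, was at 13.44, 12.69 and 12.55 in degenerative embryos and at 12.13, 12.45 and 12.63 in blastocysts. RPE, the epimerase, was at 7.68, 8.995 and 9.59 in degenerative embryos and at 9.42, 9.39 and 9.49 in blastocysts, with degenerative pools A and B below all blastocyst pools and pool C above them. Its difference of -0.68 was -0.14 without degenerative pool A, and its other tested probe sets had -0.43 and -0.32. PGD, which releases carbon dioxide and NADPH, was at 13.90, 13.47 and 12.69 in degenerative embryos and at 13.51, 13.28 and 12.94 in blastocysts. PGLS, the lactonase, was at 9.62, 10.69 and 10.28 in degenerative embryos and at 9.95, 10.27 and 10.50 in blastocysts. PGM1, which links glucose phosphate to glycogen, was at 9.84, 8.89 and 8.22 in degenerative embryos and at 8.83, 8.20 and 8.29 in blastocysts, with degenerative pools A and B above the blastocyst range.

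The spread among degenerative pools was wide for these genes. The SD was larger among degenerative than among blastocyst pools for 35 of 39 members, beside 71.2% of all genes. The median SD of a member was 0.62 in degenerative embryos and 0.21 in blastocysts, and over all genes tested it was 0.41 and 0.23. Degenerative pool A was the highest of the 6 arrays for 25 of 39 members, beside 32.9% of all genes, and the lowest for 6, beside 25.8%. Set against the mean of the blastocysts, the median member was at 0.63 in degenerative pool A, 0.26 in pool B and -0.19 in pool C, and at 0.09, -0.04 and -0.04 in blastocyst pools A, B and C. The median over all genes was between -0.03 and 0.02 in each pool. For 19 of 39 members both A pools were the highest of their group, beside 19.4% of all genes.

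**Figure D4:**
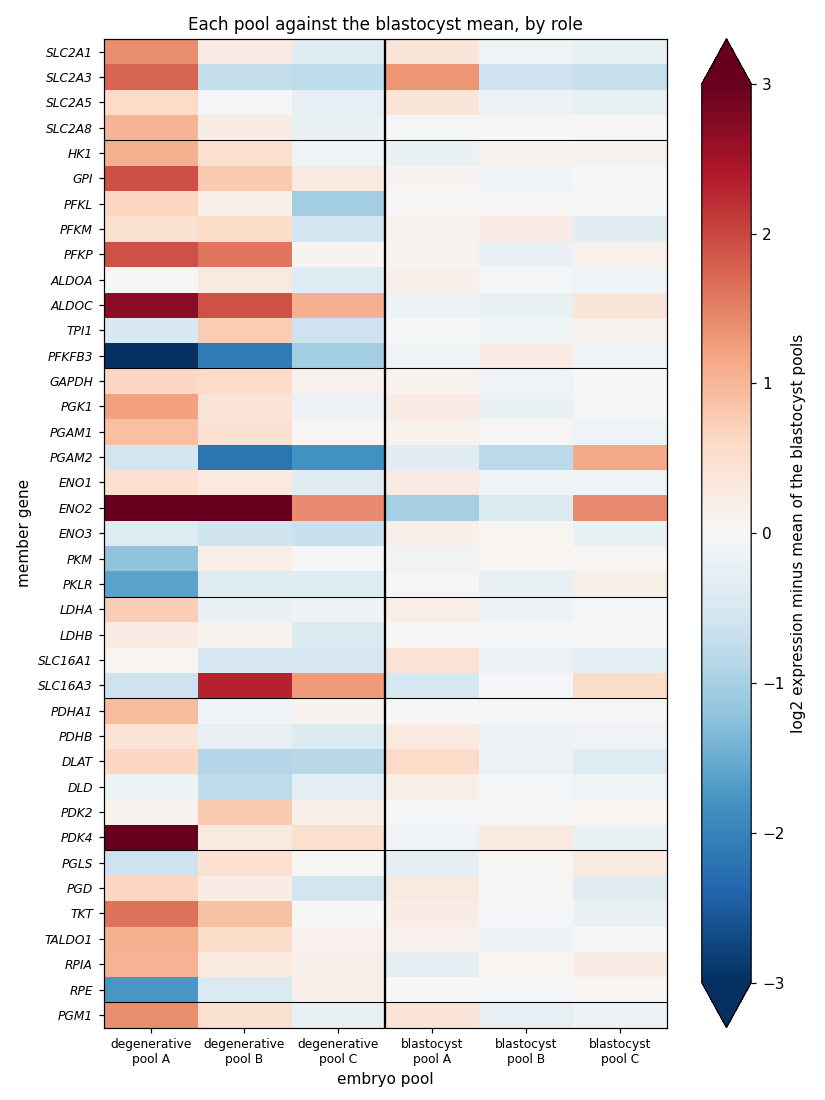
Log2 expression of the 39 members in each pool minus the mean of the 3 blastocyst pools (colour, with values past 3 at the end of the scale), with black lines between the roles in their order along the pathway. Degenerative pool A is the highest array for 25 members, which come from every role, and ENO2, ALDOC and PFKFB3 stand out in more than 1 degenerative pool.

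Further genes of sugar metabolism, beside the members, came from 8 lists with 75 genes, of which 48 were tested. None passed limma at an adjusted p up to 0.15, and 12 had an unadjusted p under 0.05 (25%, beside the 10.3% of all genes), 3 higher and 9 lower. Their pools did not overlap for 16 genes (33.3%, beside 18.1%), and SAM called 7 at 25% (14.6%, beside 5.23%), all lower. The median difference over the 48 was -0.06, with 20 higher and 28 lower. These lists were chosen with earlier results of these data known. Their shares beside those of all genes are therefore a description and not a test.

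The first 4 of these genes by limma's p included a hexokinase and a transketolase. HKDC1, a hexokinase-like enzyme, was at 9.34, 9.73 and 10.13 in degenerative embryos, against 11.88, 11.19 and 11.30 in blastocysts. The difference was -1.73 (standard error 0.29, adjusted p = 0.398 from limma), 3.31-fold lower, and -1.53 without degenerative pool A. TKTL1, a transketolase-like gene, was at 10.89, 8.92 and 8.96 in degenerative embryos, against 6.58, 6.40 and 7.28 in blastocysts. No pool overlapped, and the difference was 2.83 (standard error 0.65, adjusted p = 0.479 from limma) and 2.18 without degenerative pool A.

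The other 2 belong to side branches of glucose use. AKR1B1, which reduces glucose to sorbitol, was at 12.11, 12.79 and 12.56 in degenerative embryos, against 14.03, 13.36 and 13.52 in blastocysts, with a difference of -1.15. UAP1, which makes the activated amino sugar of the hexosamine pathway, was at 10.36, 9.95 and 10.27 in degenerative embryos, against 11.84, 11.10 and 11.01 in blastocysts, with a difference of -1.12. Neither pair of groups overlapped. Both genes had an adjusted p above 0.15 from limma (0.479 for AKR1B1 and 0.483 for UAP1). Of the 7 genes of the hexosamine and sorbitol list, 6 were lower and 1 was higher in degenerative embryos, with a median difference of -0.34. Among the 6 further isozymes tested, LDHC and PFKFB1 lay at or near the floor. PFKFB4, an isozyme of PFKFB3, was at 6.47 in degenerative pool A and near the floor in all other pools, with a difference of 1.39 that was 0.0080 without that pool. Among the 5 further genes of glucose transport and sensing tested, SLC2A4 and HK3 lay near the floor. SLC5A1, a sodium-coupled glucose transporter, had a difference of -0.057, and of 0.33 without degenerative pool A. ADPGK, a glucokinase that uses ADP, had a difference of -0.063, and of -0.35 without degenerative pool A.

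**Figure D5:**
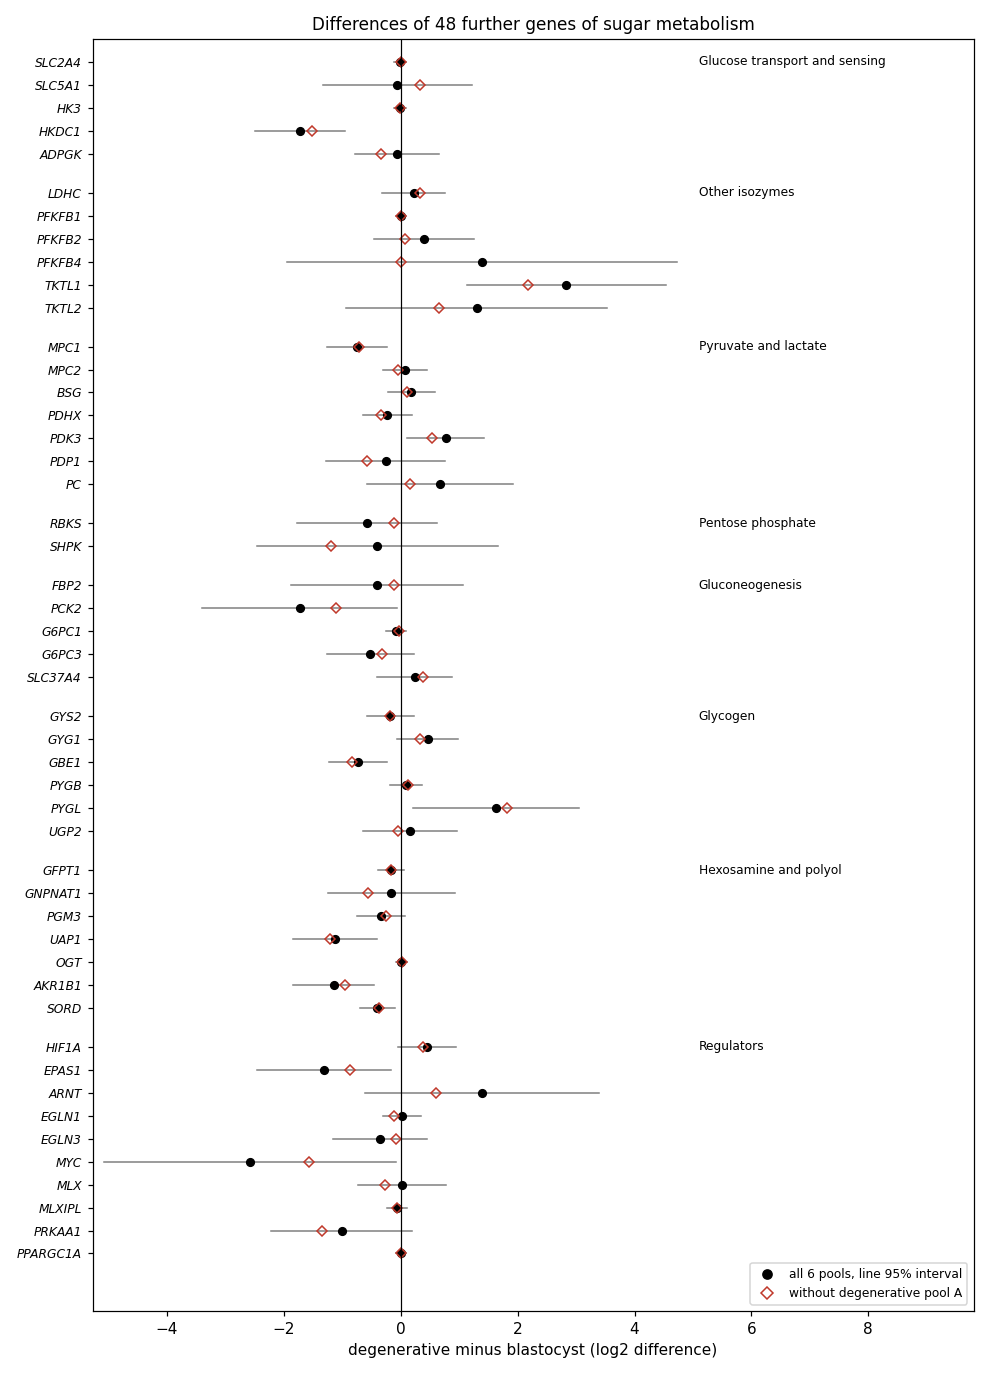
Log2 difference, degenerative minus blastocyst (horizontal axis), of 48 further genes of sugar metabolism, grouped by list down the page, with black points and 95% intervals from limma for all 6 pools and open red diamonds without degenerative pool A. TKTL1 lies farthest to the right, at 2.83, and MYC farthest to the left, at -2.57.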

How the data were processed

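The authors' deposited values were log2 expression values of each probe set, obtained with GCRMA, for which the submitters' processing notes give version 2.14.1. It uses probe sequence to correct the background, then quantile normalization and median polish. Arrays have no read depth, and the number of pools limits their precision. The tests did not use 20 control probe sets or 5079 others that were constant over the arrays, following the methods. Symbols were taken from the platform's annotation and brought up to date with the RefSeq genes of ARS-UCD2.0, which gave 1 symbol for 11002 of the tested probe sets, several for 64 and none for 7871.

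Differences were fitted by limma 3.58.1 under R 4.3.3 (lmFit, eBayes, two-sided, Benjamini-Hochberg over all 18937 probe sets, called at an adjusted p of at most 0.15). SAM, the test of the methods, was rebuilt from its published procedure with all 20 ways to relabel the arrays. Both were also run on simulated data in which 200 probe sets were changed and the spread was the same in both groups. That setting differs from these pools, where the spread was mostly larger among degenerative embryos. Shares over all genes use 1 probe set per gene.

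Alternatives were the replicate letter as a block, centring on array medians, a filter at a level of 5, no filter, trended robust spreads, a mean over probe sets, each pool left out and both A pools left out. Deviations from the group means correlated within letters at r = 0.373 (A), 0.180 (B) and 0.275 (C), and the labels do not say that a letter marks a day or batch.

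The members and lists were chosen with earlier results of these data known. Values in every pool were set to be given for members with an unadjusted p under 0.05, no overlap or a difference of at least 1, for the brightest of each role and for GAPDH; those of the other members were added. Of the further genes, the 4 with the smallest p are named. No promoter sequences were used here, so a planned motif description was not made.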

Additional observations from a re-analysis of the deposited data

How the results depend on the processing

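The count of 0 members called by limma held under every alternative run with limma, and SAM called 2 at 25%. With the replicate letter as a block (paired by letter), 4 members had an unadjusted p under 0.05 in place of 5, and no member's call changed. Leaving out both A pools gave 3 members at an unadjusted p under 0.05 (beside 12.9% of all genes) and 18 that did not overlap (beside 42.6%). Leaving out 1 pool gave 2 to 11 members at an unadjusted p under 0.05, 10 to 23 that did not overlap (beside 23.5% to 33.1% of all genes) and a median difference of 0.010 to 0.44. Fewer pools overlap less often by construction, which also raises the share of all genes. Without degenerative pool C, 23 of 39 members (59%) did not overlap, beside 32.7% of all genes. Without degenerative pool A it was 15 of 39 (38.5%), beside 33.1%. Over 13 alternatives, direction held wherever there was a value for 23 of 39 members and turned for 16, none of them called. The filter at a level of 5 left 34 members and gave no value for 5. When 1 pool was left out, the difference ran from -0.055 to 0.82 for SLC2A1, -0.74 to 0.74 for SLC2A3, -0.14 to 0.29 for SLC2A5, -0.43 to 0.42 for PFKL, -0.060 to 0.50 for PFKM, -0.21 to 0.12 for ALDOA, -0.54 to 0.15 for TPI1, -0.034 to 0.40 for ENO1, -0.62 to 0.081 for PKM, -0.18 to 0.29 for LDHA, -0.15 to 0.17 for LDHB, -0.32 to 0.087 for PDHB, -0.29 to 0.25 for PGLS and -0.16 to 0.44 for PGD. Without both A pools it was -0.084 for SLC2A3, -0.020 for SLC2A8, 0.0091 for ALDOA, 0.068 for TPI1, 0.025 for PKM, -0.085 for LDHA, 0.10 for PGLS and -0.030 for PGD. With the mean over a gene's probe sets it was -0.13 for PFKM and -0.019 for PDHA1, and with centred arrays 0.0067 for LDHB. The cause was not tested. Members under a mean of 5 are dim, and whether the floor of 2.12 compressed their differences was not tested.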
